A study of Mus musculus with 9 samples.

Results

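A set of 10 genes known for the naive state of T cells is described here across a study of IL-1b inhibition in mouse spleen. They are 9 transcriptional regulators, Foxo1, Foxp1, Tcf7, Lef1, Satb1, Bach2, Ets1, Bcl11b and Id3, and the WNT target gene Axin2. They were chosen by name, for their known place in naive T cell identity, and all 10 were found among the 55487 genes of the files and among the 13374 genes expressed well enough to be tested. The measured RNA is polyadenylated RNA of naive CD4+ T cells taken from spleens of C57BL6/J mice, and every group carries the WT genotype. The 9 libraries form 3 groups of 3, from untreated mice, from mice given a neutralizing antibody against the cytokine IL-1b for 10 days, and from mice given MCC950 for 10 days. MCC950 is a compound that blocks NLRP3, an inflammasome sensor upstream of IL-1b maturation. The labels give no age, sex, dose or route, no sort or gate for the cells, and no word on whether untreated mice were given a carrier or a control antibody. They do not tie libraries to separate mice either, and the p-values then measure only how far these libraries spread, which may be technical.

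Naive T cells are kept quiet and in circulation by a small set of transcription factors. TCF-1 (encoded by Tcf7) and LEF-1 are HMG-box factors that bind the same DNA motif and pair with beta-catenin when WNT signalling is on, and Axin2 is a feedback inhibitor of that pathway that is widely read as its transcriptional output. FOXO1 keeps homing and survival genes such as Ccr7, Il7r and Klf2 on, and FOXP1 helps to enforce quiescence. ETS1 and BCL11B sit at a large share of T cell enhancers, SATB1 organises chromatin, BACH2 competes with AP-1 factors at effector genes, and ID3 blocks the E proteins.

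All gene positions are those of GENCODE M21 on the mm10 build (GRCm38). Axin2 lies on chr11:108920349-108950783, on the plus strand, and Foxo1 on chr3:52268336-52353221, on the plus strand. Both genes fell with both agents under TMM scaling, as described below, and both have a RefSeq start with intergenic sequence before it, so these stretches are shown for reference. Each is 240 bases of GRCm38.p6, 5′ to 3′ on the gene's strand, and ends 10 bases before the RefSeq start. Axin2 is at chr11:108920099-108920338 and Foxo1 at chr3:52268087-52268326, and capitals mark the GC box, the letters GGGCGG or their complement.
Axin2: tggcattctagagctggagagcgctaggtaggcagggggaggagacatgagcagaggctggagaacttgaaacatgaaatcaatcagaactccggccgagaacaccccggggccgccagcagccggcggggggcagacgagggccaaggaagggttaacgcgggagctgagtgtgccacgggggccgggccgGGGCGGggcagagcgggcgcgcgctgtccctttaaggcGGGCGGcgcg
Foxo1: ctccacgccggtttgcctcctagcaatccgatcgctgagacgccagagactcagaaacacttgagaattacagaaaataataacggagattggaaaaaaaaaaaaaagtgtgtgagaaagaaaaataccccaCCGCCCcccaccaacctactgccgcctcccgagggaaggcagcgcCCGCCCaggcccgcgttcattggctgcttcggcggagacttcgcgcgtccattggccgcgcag

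Each stretch holds 2 GC boxes, and G and C make up 67.9% of the Axin2 stretch and 55.8% of the Foxo1 stretch. Neither holds a match, on either strand, to any of the other 7 motifs searched. For TCF/LEF these were the letters CTTTGAT and, as a shorter core, CTTTG. For FOXO the motif was GTAAACA, for the ETS family it was CGGAAGT and for AP-1 it was TGANTCA. The E-box was searched as CAGCTG and the RUNX motif as TGTGGT. The full TCF/LEF motif holds the core, and a site can match both. In the RefSeq promoter table, whose windows of 300 bases run from 250 before a start to 50 after it, 9 of the 10 genes matched (all but Ets1), with 19 windows. The full TCF/LEF letters were in 0 of these windows and in 3.73% of all 32851 windows, while the core was in 10 of the 19 (of Bach2, Bcl11b, Foxp1, Lef1 and Satb1) and in 53.9% of all windows. The GC box, added to the search after the windows were seen, was in 11 of the 19, from 7 genes, and in 35.7% of all windows. Windows of the same gene can overlap, as at Lef1 and Satb1, so some sites were counted more than once. These matches describe letters in short windows and carry no measurement of binding.

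Library totals ran from 14775375 to 21394797 expected counts, and at least 361 counts of each of the 10 genes stood in every library. Cd4 was at 850.0 CPM on average untreated, 903 with the antibody and 823 with MCC950 (CPM is the count relative to the library's total, here scaled between libraries by the TMM method), and none of the 14 naive CD4+ T cell markers was at 0. The summed CPM of these markers was 8081 to 8099.7 in untreated, 7633 to 7638 in anti-IL-1b and 7495 to 7528 in MCC950 libraries. Markers of other cells stood higher in both treated groups. Of 21 B cell markers 20 rose with each agent, with sums of 591 to 614 CPM in untreated, 797 to 838 in anti-IL-1b and 809.8 to 849 in MCC950 libraries, and none was at 0 in any group. Ighm at 306 and Cd37 at 265 CPM made up most of the untreated sum and rose by 0.35 and 0.17 in log2 with the antibody and by 0.26 and 0.24 with MCC950, whereas the median B cell marker stood 2.19 higher with the antibody and 2.47 higher with MCC950. Of 16 neutrophil markers, 11 (among them S100a8, Ly6g and Il1b) were at 0 counts in the untreated group; of the 10 that could be tested, 10 rose with the antibody and 9 with MCC950, and their sums were 1.10 to 1.34, 41.4 to 42.8 and 19.9 to 23.0 CPM. Sums of the 15 monocyte, macrophage and dendritic markers were 10.4 to 12.9, 24.4 to 27.9 and 25.2 to 28.2 CPM, with 1 at 0 in each group (Cd209a in untreated and anti-IL-1b, Siglech in MCC950), and of 9 tested 5 rose with each agent and Cd68 fell with the antibody. Sums of the 11 cytotoxic and NK markers were 67.3 to 75.0, 96.9 to 106 and 100.03 to 105 CPM, with Klrb1c and Ncr1 at 0 in untreated libraries, and of 8 tested 4 rose and Prf1 fell with the antibody, and 3 rose with MCC950. Cd8a and Cd8b1 rose with both agents. Cd8a went from 0.970 CPM to 19.4 with the antibody and 19.7 with MCC950, and Cd8b1 from 12.5 to 26.3 and 23.1. Sums of the 7 red cell markers were 0.594 to 0.732, 4.38 to 5.51 and 6.13 to 9.86 CPM, and the 4 tested rose with each agent. Hba-a1, Hbb-bs and Hbb-bt were at 0 in untreated libraries. Neutrophil and red cell markers at 0 there could pass the filter only through treated libraries, so a rise was their only possible call. Some B cell markers also stood near the floor untreated, such as Iglc2 at 0.199 CPM. Of all tested genes, 15.4% were higher with the antibody and 17.7% with MCC950. In summed CPM the widest shift was in immediate early and dissociation-linked genes, of which 17 of 18 fell with each agent, from a summed 26580.4 to 26993 CPM in untreated libraries to 6203 to 6401 with the antibody and 7081 to 7255 with MCC950. The part of these marker lists and immediate early genes in the results below was not tested. In bulk RNA, fewer cells of a type and less RNA per cell cannot be told apart.

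Per unit of transcript length, the 10 genes spanned a wide range. The scale here is the deposited TPM, a count per transcript length that sums to one total in every library and compares genes within it. In untreated cells Tcf7 was at 1033 ± 21.2 TPM (SD, n = 3), above Ets1 at 566 ± 7.47, Satb1 at 397 ± 5.62 and Lef1 at 329.6 ± 12.9. Foxp1 followed at 189.7 ± 6.22 TPM, Bcl11b at 164 ± 2.13 and Foxo1 at 79.6 ± 2.35. The 3 lowest were Axin2 at 53.0 ± 2.89, Bach2 at 45.9 ± 2.999 and Id3 at 37.6 ± 3.72 TPM. No neighbours in this order overlapped between libraries, and Tcf7 ranked 136 among all tested genes while Id3 ranked 3836.

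The order of the 7 highest genes was the same in all 3 groups, and it differed among the 3 lowest. With the antibody Axin2 was last, at 33.7 ± 0.703 TPM, below Bach2 at 46.8 ± 2.595 and Id3 at 39.2 ± 2.604, and its rank among all tested genes went from 2773 to 4440. With MCC950, Id3 at 41.5 ± 1.45, Bach2 at 39.6 ± 1.44 and Axin2 at 36.2 ± 5.61 TPM overlapped, so their order was not resolved. Axin2 in MCC950 replicate 3 stood at 42.6 TPM against 32.8 and 33.0 in the other MCC950 libraries, although its CPM was 67.4 against 66.1 and 66.1. The transcript length that the quantifier assigned to Axin2 was 2489.8 bases in that library and 3097 and 3099.9 bases in the other MCC950 libraries, so the wide TPM spread went with the assigned length and not with the count.

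**Figure D1:**
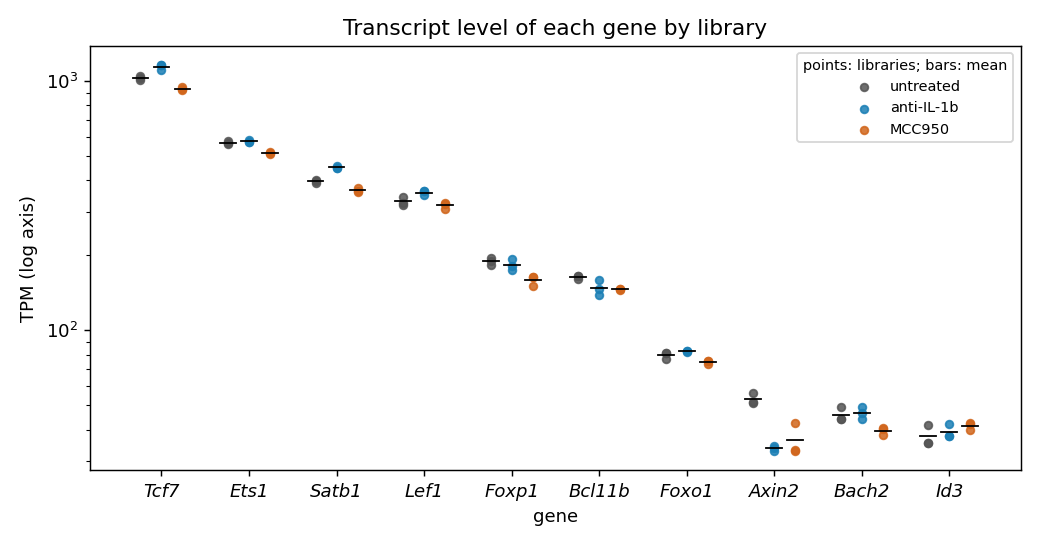
Level of each of the 10 genes in every library, in TPM on a log axis, with points for libraries, colours for the 3 groups and short bars for group means. Tcf7 is highest near 1033 TPM in untreated cells, and Axin2 goes from 53.0 TPM to 33.7 with the antibody and 36.2 with MCC950.

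Against untreated cells, 6 of the 10 genes fell with the antibody and none rose. These counts rest on TMM scaling, and 3 of the 6 fell under each of the 4 scalings described further on. Under RLE and the upper quartile 1 of the 10 was called higher, and with library totals 2 were. Foxo1, Foxp1, Axin2, Bach2, Ets1 and Bcl11b passed edgeR's quasi-likelihood test at an adjusted p of 0.05, and Tcf7, Lef1, Satb1 and Id3 did not. Across all 13374 tested genes 34% were called in this comparison and 18.5% were lower, so calls were common. With MCC950, 9 of the 10 fell, all but Id3, where 36.8% of all tested genes were called and 19.1% were lower. The median log2 fold change of the 10 genes was -0.13 with the antibody, beside 0.00 for all tested genes, and -0.22 with MCC950, beside 0.01. Both comparisons use the same untreated libraries and are therefore not independent. After Axin2, and Foxp1 with MCC950, the deepest fall was that of Bach2 with MCC950, which fell by 20.04%.

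**Figure D2:**
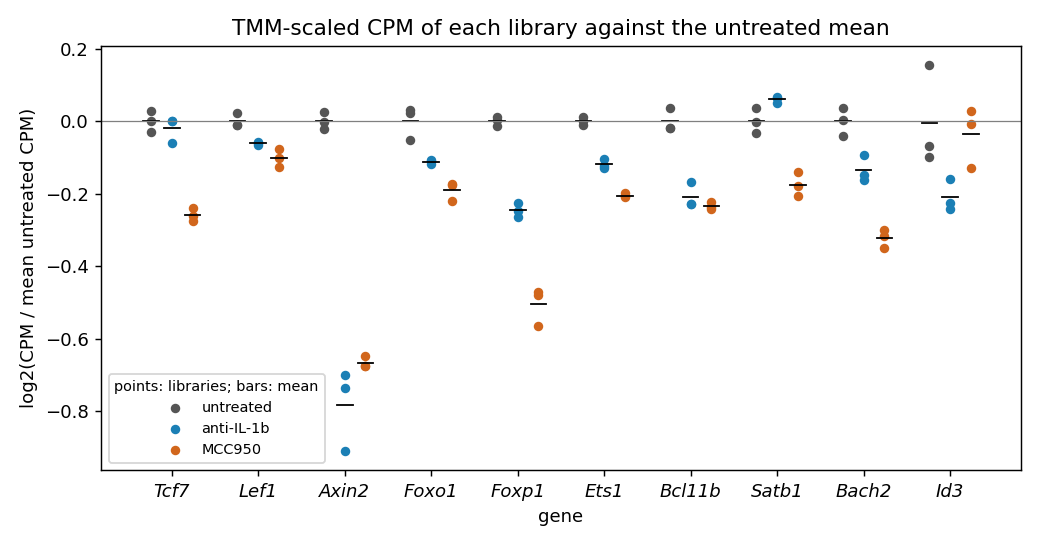
Each library's TMM-scaled CPM relative to the untreated mean of the same gene, as log2, with points for libraries, colours for groups and bars for group means. Axin2 lies far below the other genes with both agents, Foxp1 is next with MCC950, and the anti-IL-1b libraries of Tcf7 and Satb1 stay near 0.

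In the WNT arm, Axin2, the feedback inhibitor, moved most of the 10 genes. Its level was 105, 107 and 104 CPM in the untreated libraries, 64.9, 56.2 and 63.5 with the antibody, and 66.1, 66.1 and 67.4 with MCC950. All 6 treated libraries lay below all 3 untreated ones. Axin2 fell by 41.7% with the antibody (log2 fold change -0.78 ± 0.06 SE, adjusted p = 3.5e-14) and fell by 37.0% with MCC950 (-0.67 ± 0.06, adjusted p = 1.9e-12). Only 5.33% of all tested genes had a log2 fold change at or below that of Axin2 with the antibody, and 7.16% with MCC950. Between the agents its difference of -0.11 ± 0.06 did not pass (adjusted p = 0.241), although the antibody libraries all lay just below the MCC950 ones.

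Tcf7 (chr11:52252371-52283014, minus strand), which encodes a DNA-binding factor upstream of Axin2, differed between the agents. It stood at 1649.7, 1615 and 1682 CPM in untreated libraries, 1650.3, 1650.0 and 1581 with the antibody, and 1397, 1375 and 1363 with MCC950. The antibody libraries overlapped the untreated ones, and the MCC950 libraries lay below both. Tcf7 fell by 16.4% with MCC950 (log2 fold change -0.26 ± 0.02 SE, adjusted p = 2.18e-11), whereas the antibody gave -0.02 ± 0.02 (adjusted p = 0.594, but 0.11 and called higher when scaled by library totals). The direct comparison put Tcf7 higher with the antibody than with MCC950, by 0.24 ± 0.02 in log2 (adjusted p = 1.48e-09).

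Lef1 (chr3:131110471-131224356, plus strand), the close relative of Tcf7, varied little. Its values were 526, 526 and 538 CPM untreated, 509.5, 506 and 508 with the antibody, and 502, 494 and 485 with MCC950. The 3 groups did not overlap, but the steps between them were narrow. Lef1 fell by 6.87% with MCC950 (-0.10 ± 0.03 in log2, adjusted p = 0.00372, but -0.07 and 0.0664 with the upper quartile and 0.01 and 0.8 with library totals) and was at -0.06 ± 0.03 with the antibody (adjusted p = 0.0946), and the agents did not differ past the threshold (0.04 ± 0.03, adjusted p = 0.393).

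Among the forkhead factors, Foxp1 (chr6:98925338-99522721, minus strand), a repressor tied to T cell quiescence, fell with both agents and further with MCC950. It was at 403, 401 and 396 CPM in untreated libraries, 336, 342 and 333 with the antibody, and 288, 270.3 and 287 with MCC950. The 3 groups were fully apart in CPM, in that order. Foxp1 fell by 15.7% with the antibody (log2 fold change -0.25 ± 0.03 SE, adjusted p = 5.71e-08) and fell by 29.6% with MCC950 (-0.51 ± 0.03, adjusted p = 2.84e-16), and the agents differed by 0.26 ± 0.03 (adjusted p = 1.52e-07). In TPM its antibody libraries overlapped the untreated ones. On log2(TPM + 1) with limma, neither the antibody (-0.05, adjusted p = 0.485) nor the difference between agents (0.20, adjusted p = 0.0643) passed. Foxo1, the activator of homing and survival genes, was at 484, 509 and 512 CPM untreated, 461, 466 and 465 with the antibody, and 444, 431 and 443 with MCC950. Its groups did not overlap, and it fell by 7.47% with the antibody (-0.11 ± 0.03, adjusted p = 0.00299, but -0.06 and 0.112 with the upper quartile and 0.01 and 0.728 with library totals) and 12.4% with MCC950 (-0.19 ± 0.03, adjusted p = 2.02e-06). Between the agents Foxo1 differed by 0.08 ± 0.03, short of the threshold under TMM (adjusted p = 0.0801). It passed as higher with the antibody under RLE (0.09, adjusted p = 0.0493), the upper quartile (0.09, adjusted p = 0.0371) and library totals (0.09, adjusted p = 0.0332).

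Of the broad T cell factors, Ets1 and Bcl11b fell with both agents, and Satb1 fell with MCC950 only. Ets1 (chr9:32636221-32757820, plus strand), an ETS-family activator, was at 1981, 1968 and 1951 CPM untreated, 1805, 1798 and 1830.0 with the antibody, and 1714, 1704 and 1699.5 with MCC950. Its libraries separated into the 3 groups with little spread inside each. The log2 fold changes were -0.12 ± 0.02 SE with the antibody (adjusted p = 3.71e-05, but 0.01 when scaled by library totals) and -0.21 ± 0.02 with MCC950 (adjusted p = 6.26e-10), and the agents differed by 0.09 ± 0.02 (adjusted p = 0.00566). Bcl11b (chr12:107910403-108003602, minus strand), a zinc finger factor of T lineage commitment, was at 639, 616 and 616 CPM untreated, 555, 532 and 532 with the antibody, and 534, 528 and 527 with MCC950. Its treated libraries lay below the untreated ones and overlapped each other. Bcl11b fell by 13.5% with the antibody (-0.21 ± 0.03, adjusted p = 1.72e-07) and 15.0% with MCC950 (-0.23 ± 0.03, adjusted p = 1.21e-08), with 0.03 ± 0.03 between them (adjusted p = 0.638).

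Satb1 (chr17:51736187-51833290, minus strand), the chromatin organiser, was at 1040.1, 1012 and 991 CPM in untreated libraries, 1061, 1051 and 1063 with the antibody, and 896, 878 and 921 with MCC950. The antibody libraries stood just above the untreated range and the MCC950 libraries below it. Satb1 fell by 11.4% with MCC950 (log2 fold change -0.17 ± 0.03 SE, adjusted p = 8.58e-07, but -0.06 and 0.0551 with library totals), was at 0.06 ± 0.03 with the antibody (adjusted p = 0.068), and was higher with the antibody than with MCC950 by 0.24 ± 0.03 (adjusted p = 1.18e-08).

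Bach2 (chr4:32238804-32586108, plus strand), the repressor that competes with AP-1, was at 235, 230.2 and 223 CPM untreated, 205, 215 and 207 with the antibody, and 184, 180.0 and 186 with MCC950. The 3 groups did not overlap. Bach2 fell by 8.91% with the antibody (-0.13 ± 0.04 in log2, adjusted p = 0.00348, but -0.08 and 0.0724 with the upper quartile and -0.01 and 0.892 with library totals) and fell by 20.04% with MCC950 (-0.32 ± 0.04, adjusted p = 2.25e-09), a difference between agents of 0.19 ± 0.04 (adjusted p = 0.000322). Id3 (chr4:136143497-136145755, plus strand), the E protein inhibitor and the gene with the fewest counts, was at 26.4, 25.9 and 30.8 CPM untreated, 24.8, 23.4 and 23.7 with the antibody, and 28.2, 25.3 and 27.5 with MCC950. Its antibody libraries lay below the other groups and its MCC950 libraries overlapped the untreated ones. No comparison of Id3 passed, at -0.21 ± 0.10 with the antibody (adjusted p = 0.0936), -0.04 ± 0.09 with MCC950 (adjusted p = 0.809) and -0.17 ± 0.10 between the agents (adjusted p = 0.27). Standard errors near 0.1 on counts of 361 to 589 leave changes of this size unresolved.

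Between the agents, 5 of the 10 genes were higher with the antibody than with MCC950 and none was lower. They were Foxp1, Tcf7, Satb1, Bach2 and Ets1. Of all tested genes 13.2% were called in this comparison, 6.13% higher and 7.11% lower. The median log2 difference of the 10 genes was 0.08, beside 0.00 for all tested genes. This comparison sets the treated groups against each other, but its filter, scaling and estimate of spread came from the fit of all 9 libraries, untreated ones included. Scaling by library totals, described next, moved its median by 0.0135 in log2.

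The small falls depend on how libraries were scaled to each other. Scaling by library totals alone in place of TMM raised the median log2 fold change of all tested genes by 0.13 with the antibody and by 0.11 with MCC950. With totals, the split of all calls with the antibody turned from 2066 higher and 2479 lower to 3929 and 1344, and with MCC950 from 2369 and 2552 to 4009 and 1587. Upper-quartile scaling gave 2687 higher and 1941 lower with the antibody. Under all 4 scalings (TMM, RLE, upper quartile and totals) 3 of the 10 genes fell with the antibody, Axin2, Foxp1 and Bcl11b, and 7 fell with MCC950, these 3 with Foxo1, Tcf7, Bach2 and Ets1. The same 5 genes were higher with the antibody than with MCC950 under all 4, and Foxo1 joined them under the 3 other than TMM. Calls shared by all 4 scalings were not counted over the 13374 genes. They can be no more than 1344 lower with the antibody, 1587 lower with MCC950 and 820 higher with the antibody than with MCC950. With the antibody, Foxo1, Tcf7, Lef1 and Ets1 changed sign with totals, and Tcf7 also with the upper quartile. With totals Tcf7 passed as higher with the antibody (0.11, adjusted p = 0.000416), and so it did on log2(TPM + 1) with limma (0.14, adjusted p = 0.00554), while Foxo1, Lef1 and Ets1 did not pass with totals. Satb1 was called higher with the antibody under RLE (0.07), the upper quartile (0.11) and totals (0.19). With MCC950, Lef1 and Id3 changed sign with totals, and Id3 also with the upper quartile. Axin2 with the antibody ranged from -0.78 to -0.65 over the 4 scalings and with MCC950 from -0.67 to -0.55, the widest fall of the 10 genes under each.

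**Figure D3:**
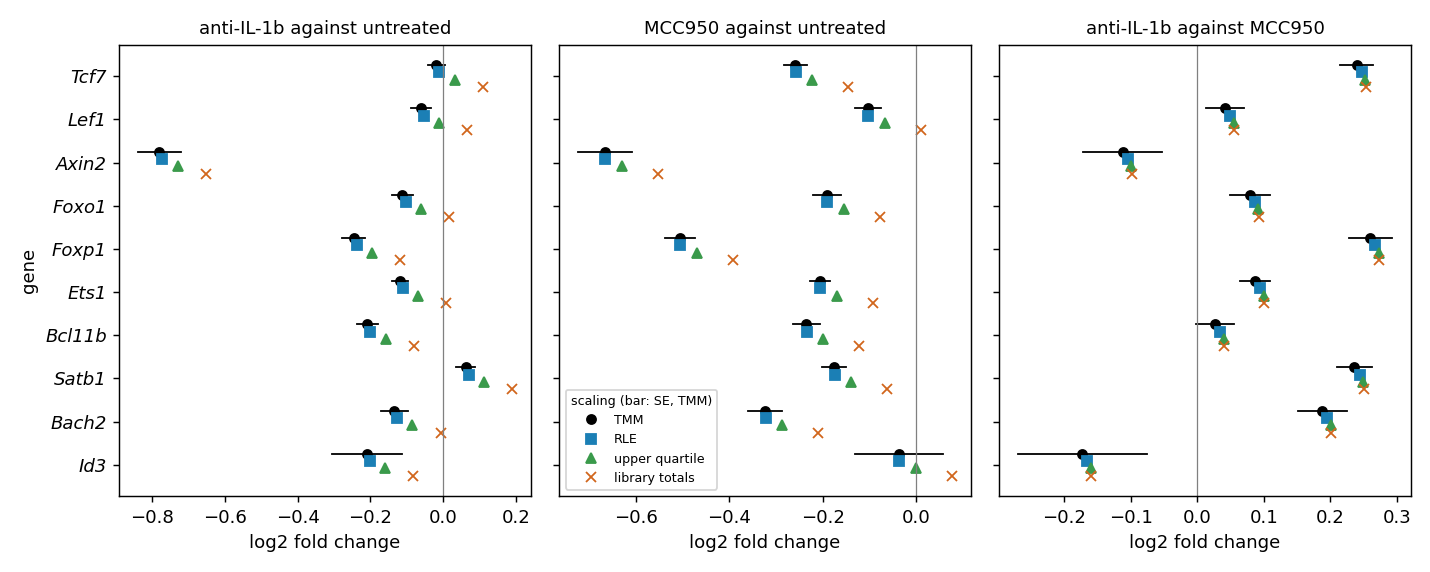
Log2 fold change of each gene in the 3 comparisons under 4 scalings between libraries, with bars for the standard error under TMM. Points of the comparisons with untreated cells move right with library totals (crosses) by about 0.13 and 0.11, past 0 for Foxo1, Tcf7, Lef1 and Ets1 with the antibody, whereas the comparison of the agents barely moves.

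Ratios of genes within a library do not depend on that scaling. With 8 ratios over 3 comparisons, 24 were tested by an exact permutation test on log2 TPM, where 3 libraries against 3 cannot give a p below 0.1 and the adjusted p cannot reach 0.05. The ratio of Tcf7 to Axin2 was 4.29 ± 0.08 in log2 in untreated cells (SD, n = 3), 5.08 ± 0.06 with the antibody and 4.70 ± 0.23 with MCC950. It was thus higher by 0.80 and 0.41, with no overlap between groups (exact permutation p = 0.1, adjusted p = 0.16 for each). From CPM, where the assigned length of Axin2 has no part, the differences were 0.76 and 0.41. The ratio of Bcl11b to Satb1 was lower by 0.33 with the antibody, at -1.61 ± 0.10 against -1.28 ± 0.04 untreated, and overlapped untreated with MCC950, although from CPM the MCC950 libraries lay below the untreated ones by 0.06. The ratio of Tcf7 to Lef1 was lower by 0.10 with MCC950, and from CPM by 0.16, and overlapped with the antibody.

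Ratios of several of the 10 genes to a family relative were higher in the treated libraries. Under TMM, Id3, Foxo1 and Ets1 did not rise themselves, and their relatives Id2, Foxo3 and Elf1 fell further. Elf1 fell by 0.33 ± 0.03 SE in log2 with the antibody and by 0.44 ± 0.03 with MCC950. The log2 ratio of Id3 to Id2, the other ID protein of T cells, was -0.79 ± 0.27 untreated, -0.31 ± 0.22 with the antibody and -0.28 ± 0.10 with MCC950 (SD, n = 3). These groups did not overlap the untreated one. The ratio of Foxo1 to Foxo3 was higher by 0.30 and 0.21, and that of Ets1 to the ETS factor Elf1 by 0.20 and 0.21, also without overlap, each at an exact permutation p of 0.1. The ratio of Foxo1 to Foxp1 was higher by 0.10 and 0.15, and from CPM by 0.13 and 0.32, the assigned length of Foxp1 being shorter with MCC950. The ratio of Bach2 to Bach1 overlapped between the treated and untreated groups.

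The assigned transcript length is an average over a gene's isoforms weighted by their estimated abundance, and it moves when the mix of long and short isoforms moves. It was compared for 9 genes in 27 exact permutation tests, with a smallest possible p of 0.1, and the lowest adjusted p obtained was 0.3. Foxo1 has 1 annotated transcript and could not vary. For Foxp1, which has 31 annotated transcripts of 336 to 7177 bases, the length was 3176, 2963 and 3017 bases untreated, 3099, 3054 and 2813 with the antibody, and 2728, 2799.9 and 2725 with MCC950. The MCC950 libraries lay below both other groups, a mean of 2751 ± 42.5 against 3052 ± 111 bases untreated (SD, n = 3, exact permutation p = 0.1). Foxp1, the gene of the second deepest fall in count with MCC950, thus also had its shortest mean transcript there.

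The other length differences were smaller or held with 1 agent. Id3 was at 1213 ± 15.2 bases untreated, 1137 ± 31.3 with the antibody and 1160.2 ± 20.7 with MCC950 (SD, n = 3), both below untreated without overlap. Ets1 was at 4879 ± 19.7 bases untreated, 4940.4 ± 8.58 with the antibody and 4955 ± 23.7 with MCC950, both above. Bcl11b was longer with the antibody, at 5694 ± 262 against 5327 ± 103 bases, and Tcf7 shorter with MCC950, at 2344 ± 11.1 against 2365 ± 4.28. Axin2, Bach2 and Satb1 overlapped between treated and untreated groups, and Lef1 was apart only between the agents, at 2354 ± 41.5 with the antibody and 2449 ± 36.2 with MCC950.

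**Figure D4:**
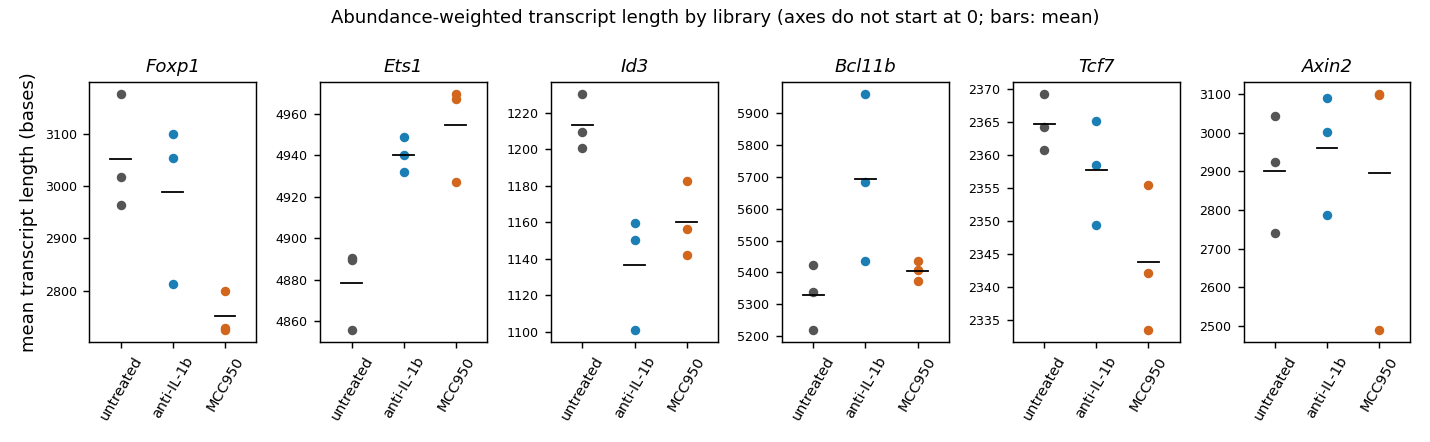
Abundance-weighted transcript length in bases of 6 of the genes in every library, with bars for group means and axes that do not start at 0. Foxp1 is shortest in the 3 MCC950 libraries, Ets1 is longer and Id3 shorter in all treated libraries, and 1 MCC950 library of Axin2 stands at 2489.8 bases.

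Beyond the 10 genes, family relatives also moved. Of 16 relatives 11 were tested, and with each agent 5 were lower and 2 higher past the threshold, at medians of -0.35 (antibody) and -0.31 (MCC950) in log2. For this list and those below, the shares over all tested genes were 18.5% lower and 15.4% higher with the antibody. With MCC950 they were 19.1% lower and 17.7% higher. Ets2, the closest relative of Ets1, went from 130.4 ± 3.47 CPM to 49.1 ± 5.36 with the antibody and 47.4 ± 0.495 with MCC950 (SD, n = 3), log2 fold changes of -1.41 ± 0.06 and -1.46 ± 0.06 SE. Axin1, the constitutive scaffold of the beta-catenin destruction complex, fell by 0.42 ± 0.04 and 0.31 ± 0.04, beside log2 fold changes of -0.78 and -0.67 for Axin2. Foxo3 fell by 0.35 ± 0.05 and 0.36 ± 0.05, and Id2 by 0.67 ± 0.09 and 0.57 ± 0.09.

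Of 40 genes of the canonical WNT pathway, its receptors, destruction complex, corepressors and feedback targets, 29 were tested. With the antibody 13 fell and 4 rose, and with MCC950 15 fell and 3 rose, with medians of -0.17 and -0.15. The receptor gene Fzd5 fell from 20.4 ± 2.17 CPM to 5.38 ± 0.474 and 4.25 ± 0.526, log2 fold changes of -1.92 ± 0.16 and -2.27 ± 0.16 SE. The feedback ubiquitin ligase gene Znrf3 fell by 0.51 ± 0.06 and 0.68 ± 0.06, and the corepressor gene Tle4 by 0.46 ± 0.05 and 0.37 ± 0.05. Ctnnb1, which encodes beta-catenin itself, rose by 0.33 ± 0.04 with the antibody and 0.43 ± 0.04 with MCC950, opposite to Axin2. The feedback genes Nkd1, Dkk1 and Notum were at 0 counts in all 3 groups.

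The FOXO list holds 22 regulators and target genes, all tested, of which 11 fell and 3 rose with the antibody and 12 fell and 2 rose with MCC950, with medians of -0.08 and -0.12. Klf2, a FOXO1 target and itself a quiescence factor, fell from 968.7 ± 19.5 CPM to 390.4 ± 10.0 and 358 ± 7.51, log2 fold changes of -1.31 ± 0.03 and -1.44 ± 0.03. Irs2, a FOXO-induced adaptor of insulin signalling, fell by 2.15 ± 0.08 and 2.35 ± 0.08, and the cell cycle inhibitor gene Cdkn1b by 0.70 ± 0.03 and 0.81 ± 0.03. S1pr1, the receptor for egress from lymphoid organs, fell by 0.51 ± 0.03 and 0.60 ± 0.03, and the kinase gene Sgk1 by 1.16 ± 0.06 and 0.78 ± 0.06. The list did not move one way: Il7r, the IL-7 receptor gene, rose with the antibody (0.15 ± 0.03, adjusted p = 0.000231), as did the survival gene Bcl2 (0.21 ± 0.03, adjusted p = 3.95e-06), both named after their values were seen, and neither passed with MCC950. The falls named here exceeded that of Foxo1 itself, and the immediate early genes fell in the same libraries, as given above.

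The BACH2 list holds 20 genes, all tested, and 4 of them are also on the immediate early list. Besides dimer partners and genes that BACH2 restrains, it holds AP-1 genes, whose products compete with BACH2, and Bach1 and Nfe2l2. The counts and medians cover all of these. With the antibody 12 fell and 1 rose, and with MCC950 14 fell and none rose, with medians of -0.63 and -0.66. The AP-1 genes Jun, Fos, Fosb and Fosl2 had the smallest p. Jun went from 1618 ± 9.78 CPM to 206 ± 8.29 and 133 ± 4.66, Fos from 1117 ± 6.25 to 205 ± 2.75 and 138 ± 2.02, Fosb from 687 ± 16.2 to 46.0 ± 0.278 and 12.0 ± 1.42, and Fosl2 from 245.5 ± 9.63 to 14.2 ± 1.67 and 17.1 ± 0.424. The deepest fall in log2 was that of Fosb with MCC950 (-5.84 ± 0.05 SE) and, with the antibody, that of the small MAF partner gene Maff (-4.96 ± 0.18, and -5.04 ± 0.17 with MCC950), named after its values were seen. Under TMM, Bach2, the AP-1 competitor, and these AP-1 genes were thus all lower with both agents, by different amounts. Bach2 with the antibody did not pass with the upper quartile (-0.08, adjusted p = 0.0724) or library totals (-0.01, adjusted p = 0.892).

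Of 8 E proteins and their partners 5 were tested, and 2 fell with each agent, Id2 and the E protein gene Tcf12 (by 0.31 ± 0.04 and 0.44 ± 0.04 in log2), while Tcf3 rose with MCC950 (0.15 ± 0.05, adjusted p = 0.0254). A further list held 27 tested genes of T cell identity outside the 10 genes, mostly transcription factors but also Themis, which is not one. Of these 27, 16 fell and 4 rose with the antibody and 21 fell and 4 rose with MCC950. Medians were -0.18 and -0.28, and the named falls included Gata3 at -0.56 ± 0.06 and -0.77 ± 0.06 SE, Runx3 at -0.58 ± 0.05 and -0.40 ± 0.05, and the thymocyte selection gene Themis at -0.39 ± 0.04 and -0.61 ± 0.04. Factors of activated and effector T cells fell too, 10 of 18 tested with the antibody and 11 with MCC950, with 3 risen in each. Nr4a1, an early target of the T cell receptor that is also on the immediate early list, went from 962.5 ± 14.8 CPM to 72.1 ± 2.35 and 50.9 ± 3.70, and Irf4 from 63.2 ± 3.57 to 6.07 ± 1.05 and 5.65 ± 0.341. Both the naive factors and the effector factors thus held more falls than rises under TMM, and the lists were not recounted under other scalings. All tested genes also held more falls than rises under TMM, 2479 against 2066 with the antibody and 2552 against 2369 with MCC950. With library totals that split turned to more rises.

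**Figure D5:**
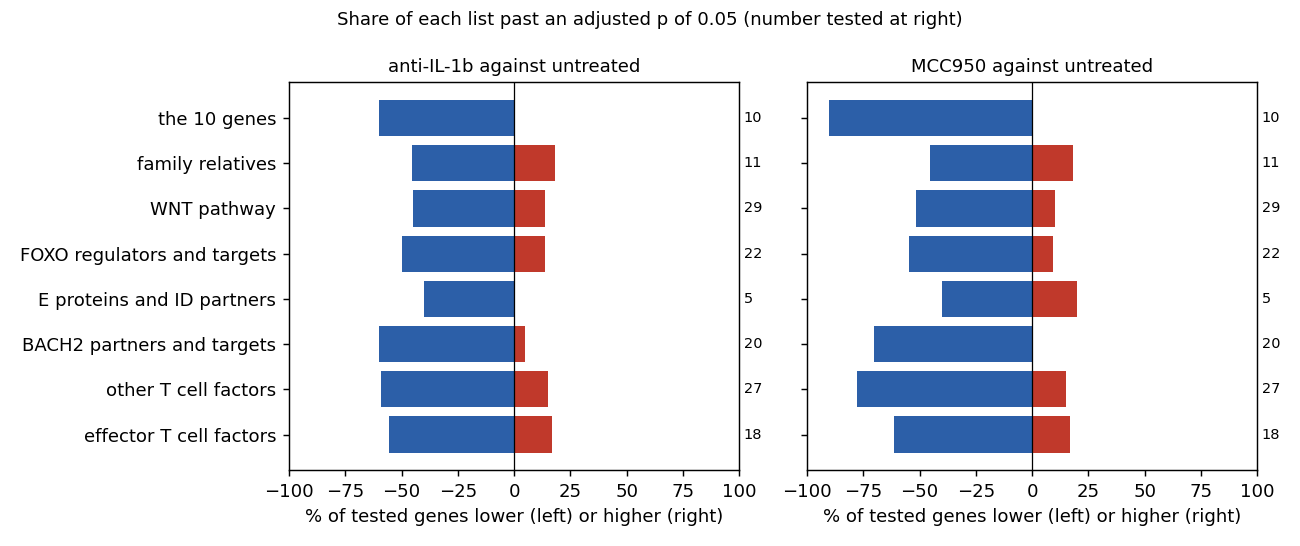
Percent of the tested genes of each list past the threshold with the antibody (left panel) and MCC950 (right panel), lower to the left and higher to the right of 0, with the number tested at the right edge. The 10 genes hold 6 and 9 falls and no rise, and every list shown has more falls than rises under TMM scaling. Of all tested genes, 18.5% and 19.1% were lower and 15.4% and 17.7% higher. The list labelled BACH2 partners and targets also holds AP-1 genes.

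Naive T cell surface and receptor markers did not move one way. Of 14, 6 fell and 3 rose with the antibody and 5 fell and 5 rose with MCC950, with medians of 0.00 and 0.00. Ccr7, the homing receptor gene, fell by 0.50 ± 0.03 and 0.55 ± 0.03 in log2, and the costimulatory receptor gene Cd28 by 0.50 ± 0.04 and 0.60 ± 0.04. Cd3e, a chain of the T cell receptor complex, rose by 0.26 ± 0.03 and 0.22 ± 0.03.

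For each of the 6 genes called with both agents, the 2 genes of closest pattern were sought among the 7189 genes whose mean log2 CPM was 4 or more, by the root mean square distance of centred log2 CPM over the 9 libraries. Axin2 was nearest to Rassf1 (0.066) and Neurl3 (0.070), and Foxp1 to Klf7 (0.032) and Bicral (0.035). Bach2 was nearest to Malat1 (0.029) and Rictor (0.030), and Foxo1 to Lrch1 (0.023) and Rpl24 (0.027). Ets1 was nearest to Ppp1r12a (0.020) and Ube2h (0.020), and Bcl11b to Kif5b (0.021) and Zfp91 (0.021). Neurl3 had log2 fold changes of -0.76 with the antibody and -0.72 with MCC950, beside -0.78 and -0.67 for Axin2, and Klf7 had -0.23 and -0.45, beside -0.25 and -0.51 for Foxp1. The distances for Axin2 were larger than for the other 5 genes. Axin2 also had the lowest level of the 6, at group means of 61.5 to 106 CPM, beside 184 to 230 for Bach2, the next lowest. The part of level in the distances was not tested.

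Genes on the opposite strand overlap several of the 10, and no source used here says whether the counting was stranded. The antisense gene with the highest level was Gm43352 at Lef1, at 17.7 CPM untreated, followed by A630014C17Rik at Tcf7 at 10.97 CPM, against 530.1 and 1649 CPM for Lef1 and Tcf7. Satb1 overlaps E430014B02Rik on its own strand, at 28.4 CPM untreated, 26.5 with the antibody and 13.2 with MCC950, against 1014 CPM for Satb1. Axin2 overlaps only Gm11670, which was at most 0.0165 CPM in any group mean.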

How the data were processed

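Poly(A) RNA of 9 libraries was grouped by GEO's labels into 3 groups of 3. Reads were aligned and quantified by the authors with STAR and RSEM on mm10, per the submitters' processing notes; no source used here gives versions. RNA was made into libraries with a directional kit, per the labels' protocols. Per the file headers, the authors deposited RSEM expected counts per gene, which are not normalized and share out reads that match several genes. The authors' TPM values have one total in every library, and the deposited transcript lengths are weighted by isoform abundance. Of 55487 gene IDs, 55227 (99.5%) had a symbol in GENCODE M21.

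Expected counts were rounded for edgeR's quasi-likelihood test (version 4.0.16 with limma 3.58.1 in R 4.3.3; robust, TMM, filterByExpr, 3 group means over 9 libraries). All p-values are two-sided, and Benjamini-Hochberg adjustment of those for genes ran over 13374 genes at a threshold of 0.05. Ratios and lengths had exact permutation tests (scipy 1.17.1). Simulated counts were used to test the fit. Of each list up to 4 genes past the threshold with the smallest p against untreated were named; the 10 genes were named throughout, and 1 gene that the rule names is not reported here. The genes, lists and motifs were chosen with earlier results of these data known, and the GC box was added after the promoter windows were seen. Promoters are RefSeq's. Alternatives were other scalings and filters, log2(TPM + 1) with limma-trend, limma-voom, DESeq2 1.42.0, a block for the replicate number, the non-robust fit, 0.10 as the threshold and each library left out.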

Additional observations from a re-analysis of the deposited data

How the results depend on the processing

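The 6, 9 and 5 of the 10 genes called with the antibody, with MCC950 and between the agents were recounted under 11 alternatives and with each of 9 libraries left out. Leaving out a library gave 6 to 7, 9 to 9 and 5 to 5 of the 10 genes, and 3954 to 4498, 4201 to 5021 and 1246 to 1763 of all genes. The seventh was Satb1, called higher without untreated replicate 1 or MCC950 replicate 1. DESeq2 and limma-voom each called 7 of the 10 genes with the antibody, 6 lower and 1 higher, beside 4402 and 4466 of all genes. Over every setting run, 1 gene (Axin2) kept its call with the antibody, 5 (Foxp1, Tcf7, Axin2, Ets1 and Bcl11b) with MCC950 and 3 (Tcf7, Satb1 and Ets1) between the agents. Such calls were not counted over all genes. They can be no more than the 862 lower, 1102 lower and 371 higher called on log2(TPM + 1). The labels do not say that replicate numbers mark a shared batch, and the data did not meet the bar for pairing, a correlation of deviations over 0.1 in every same-numbered pair. It was met in 6 of 9 pairs, at 0.362 to 0.404 for number 2, 0.117 to 0.197 for number 3 and -0.00192 to 0.0999628 for number 1, so a batch shared by some numbers is possible, and the best match had the same number in 11 of 18 cases. With the replicate number as a block the counts were 6, 9 and 5 of the 10 genes and 4483, 4855 and 1704 of all genes, beside 4545, 4921 and 1771 without it.

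On log2(TPM + 1), which raised the median of all genes by 0.14 with the antibody and 0.09 with MCC950, 3 of the 10 genes were called with the antibody (2 higher, 1 lower), 6 with MCC950 and 4 between the agents. Of all genes, 3497 (2635 higher, 862 lower), 3278 (2176 and 1102) and 576 (371 and 205) were called; the cause was not tested. Signs that turned with the antibody were those of Tcf7 (0.0308 upper quartile, 0.108 totals, 0.143 TPM, and -0.0351 to 0.000799 with each library left out, above 0 without anti-IL-1b replicate 3), Foxo1 (0.0150 totals, 0.0502 TPM), Lef1 (0.0656 totals, 0.115 TPM), Ets1 (0.00793 totals, 0.0229 TPM), Bach2 (0.0282 TPM) and Id3 (0.0611 TPM). With MCC950 they were those of Id3 (0.000687 upper quartile, 0.0774 totals, 0.143 TPM, and -0.0843 to 0.0474 with each library left out, above 0 without untreated replicate 3 or MCC950 replicate 2) and Lef1 (0.0107 totals). For these, too, the cause was not tested. Depth was lowest for Id3, at 361 to 589 counts per library.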
